A study of Mus musculus with 12 samples.

Results

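Broad domains of H3K27me3 were studied, here the 463 longest stretches of the mark in WT blood progenitors, each at least 10 kb long. To find them, the peaks of both WT H3K27me3 libraries on chromosomes 1 to 19 were merged wherever they overlapped or touched. Of the 12041 merged intervals, 7286 were touched by both WT libraries, and 463 of those (6.35%) reached 10000 bp. The domains spanned 7.64 Mb in all, which was 23.0% of the bases in the 7286 regions.

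The cells were bone marrow cells positive for the receptor cKit and, per the series design, negative for lineage markers, a fraction that holds blood stem and progenitor cells. They came from C57BL/6 mice. The KO animals were Mx1Cre+ with Ints11 flox alleles on both chromosomes, and the controls were WT littermates. Sorting took place 4 days after injection of poly(I:C), given per the labels to both groups. There were 2 mice per genotype, called WT_407 and WT_409 or KO_399 and KO_401 here, on the reading that the number in a label is the animal. Each gave 1 H3K27me3 library and 1 H3K4me3 library, so spreads cover 2 libraries per genotype. Mx1Cre is an interferon-inducible Cre that acts in many cell types besides blood cells, and poly(I:C) itself sets off an interferon response in both genotypes. Ints11 is the RNA-cleaving subunit of Integrator, a complex that acts on nascent transcripts. The start of Ints11 lay under H3K4me3 and outside H3K27me3 in all 4 mice, which does not check the deletion.

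H3K27me3 is written by Polycomb repressive complex 2 (PRC2), which is recruited to CpG islands and spreads the mark outward from them. In blood progenitors the broadest stretches typically lie over silent genes for developmental transcription factors, the Hox clusters among them. H3K4me3 marks active or poised promoters, and a promoter with both marks is called bivalent.

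The microRNA genes inside the domains illustrate which loci carry them. The RefSeq annotation placed 26 microRNA genes in 18 domains, which is 2.29% of the 1136 on chromosomes 1 to 19, and 23 of the 26 had a mature sequence in RefSeq (GRCm38.p6, the coordinates of mm10). The sequences below are examples: mature microRNAs that share a seed between genes in the domains, and miR-10b, from Hoxd, and miR-96 and miR-183, which share a cluster. Capitals mark the seed, bases 2 to 8, which pairs with target messages.
mmu-miR-196a-5p: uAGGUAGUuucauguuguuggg
mmu-miR-196b-5p: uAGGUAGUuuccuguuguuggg
mmu-miR-9-5p: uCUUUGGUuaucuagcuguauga
mmu-miR-132-3p: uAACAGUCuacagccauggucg
mmu-miR-212-3p: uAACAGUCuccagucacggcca
mmu-miR-10b-5p: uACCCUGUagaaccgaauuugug
mmu-miR-96-5p: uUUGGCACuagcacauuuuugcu
mmu-miR-183-5p: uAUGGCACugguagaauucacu
The first pair shares the seed AGGUAGU and comes from genes in 3 Hox domains, Mir196a-1 in Hoxb, Mir196a-2 in Hoxc and Mir196b in Hoxa. miR-132 and miR-212 share AACAGUC and lie in a single domain, chr11:75164915-75175929. miR-9-5p comes from 2 domains, those of Mir9-1 and Mir9-3.

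Promoters of the best and least covered domains are shown next, because PRC2 is recruited to CpG-rich DNA. Tbx1 and Skor1 kept nearly all of their mark in KO, whereas Brsk2 and Celf6 were among the least covered, above all in KO_399. Each sequence is the 250 bases before the RefSeq start (GRCm38.p6), 5′ to 3′ on the gene's strand, and capitals mark the motif CG, which reads the same on both strands.
Tbx1 promoter, chr16:18588900-18589149 (- strand): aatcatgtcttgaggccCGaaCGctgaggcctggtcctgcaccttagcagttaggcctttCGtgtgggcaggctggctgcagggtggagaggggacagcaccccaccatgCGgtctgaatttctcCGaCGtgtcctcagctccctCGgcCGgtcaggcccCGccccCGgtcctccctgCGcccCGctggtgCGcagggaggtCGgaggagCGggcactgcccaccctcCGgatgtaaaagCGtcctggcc
Skor1 promoter, chr9:63148962-63149211 (- strand): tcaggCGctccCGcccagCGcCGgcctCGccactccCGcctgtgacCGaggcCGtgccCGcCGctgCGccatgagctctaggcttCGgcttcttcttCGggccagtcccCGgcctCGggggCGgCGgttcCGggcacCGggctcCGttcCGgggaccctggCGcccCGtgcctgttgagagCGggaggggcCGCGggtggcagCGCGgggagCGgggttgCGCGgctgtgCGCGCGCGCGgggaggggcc
Brsk2 promoter, chr7:141949501-141949750 (+ strand): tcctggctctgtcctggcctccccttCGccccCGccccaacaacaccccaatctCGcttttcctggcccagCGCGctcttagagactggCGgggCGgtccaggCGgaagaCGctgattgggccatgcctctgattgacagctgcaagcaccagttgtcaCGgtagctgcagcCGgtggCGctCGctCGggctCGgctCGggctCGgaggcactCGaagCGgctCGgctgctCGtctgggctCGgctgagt
Celf6 promoter, chr9:59578087-59578336 (+ strand): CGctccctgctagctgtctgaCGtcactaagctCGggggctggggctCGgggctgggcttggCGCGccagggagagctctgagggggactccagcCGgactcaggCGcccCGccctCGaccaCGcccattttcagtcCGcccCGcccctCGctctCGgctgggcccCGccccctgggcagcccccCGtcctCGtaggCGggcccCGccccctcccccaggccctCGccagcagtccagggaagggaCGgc
These windows held 17, 36, 22 and 22 CG in the order Tbx1, Skor1, Brsk2 and Celf6, so the 2 pairs did not separate by this count. The pairs are examples. Other windows of the least covered domains ranged from 3 CG at Gm39002 and 4 at Tnxb to 26 at Ccno. Other windows of the best covered ones ranged from 9 at Nkx2-1 to 25 at Elfn2. Across the table, 93.7% of 20085 start sites had at least 1 CG in such a window, against 99.7% of the 388 start sites inside domains. The median was 4 CG per 100 bases over all start sites and 6 inside domains, and the ratio of observed to expected CG was 0.547 and 0.704. The start site of Brsk2 lay under a peak in WT_407, WT_409 and KO_401 but not in KO_399. Those of Tbx1, Skor1 and Celf6 lay under a peak in all 4 libraries.

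The libraries differed before any domain was considered. On chromosomes 1 to 19 the H3K27me3 lists held 11748, 9673, 6505 and 7559 peaks in WT_407, WT_409, KO_399 and KO_401, an order kept for all values in series below, and covered 34.2, 31.2, 15.1 and 23.0 Mb. KO_399 had the least H3K27me3 and also the most H3K4me3, at 43.3 Mb against 36.0, 37.6 and 35.7 Mb in WT_407, WT_409 and KO_401. The files give no read totals. The background recovered from the deposited values was 3.09, 3.15, 3.3 and 3.67 reads per position for H3K27me3, higher in both KO libraries than in both WT libraries. Every deposited fold was above 5. For H3K27me3 this limit needed 19.45, 19.75, 20.5 and 22.35 reads at a summit, so more in both KO libraries. An uncovered base may still carry weaker signal. H3K4me3 lay on the start of Kit in all 4 mice and on 15 of 15 granulocyte and monocyte genes. It lay on 1, 9, 4 and 2 of 11 B lymphoid starts and on 0, 3, 3 and 1 of 11 erythroid and megakaryocyte starts, so WT_409 stood apart in B lymphoid genes. T and NK genes were at 4 of 14 in each library, stromal and endothelial genes at 6, 3, 5 and 5 of 15, and the T cell gene Cd3e had no peak. The part of these differences in the results was not tested. In bulk cells, fewer cells carrying the mark and less mark per cell cannot be told apart.

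The domains were less covered in both KO mice than in both WT mice. Peaks covered 97.3% and 94.9% of domain bases in WT_407 and WT_409, 66.7% in KO_399 and 83.7% in KO_401. WT averaged 96.1 ± 1.74% and KO 75.2 ± 12.0% (SD, n = 2 each), a difference of -20.9 percentage points. Both WT values lay above both KO values, and KO_399 was the lowest. The WT values are fixed by the way domains were chosen, so this difference is a description, and an exact permutation test of 2 against 2 cannot give a p below 1 in 3 in any case. Without KO_399 the difference was -12.4 points. The median domain had 98.8, 96.7, 67.7 and 84.6% of its bases covered.

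In 430 of the 463 domains (92.9%), each KO library covered fewer bases than either WT library, and the reverse was seen in none. The same count over all 7286 regions was 84.4%, a high background, and choosing regions from WT peaks favours WT in both counts. With all lists reduced to the same covered length, as described below, the domain count fell to 309 of the same 463 (66.7%). That setting favours WT in long domains. Its count has no like count over all regions beside it, since 84.4% is from the lists before reduction. Domains with under 50% of bases covered numbered 1, 0, 102 and 10, and only the Brsk2 domain was empty in a library, KO_399. Of the 6823 shorter regions, 6823, 6823, 4018 and 5251 held a peak in WT_407, WT_409, KO_399 and KO_401. Full coverage was reached by 107 and 55 domains in the WT libraries and by none in KO. The counts under 50% and of full coverage have no like count over all regions beside them.

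**Figure D1:**
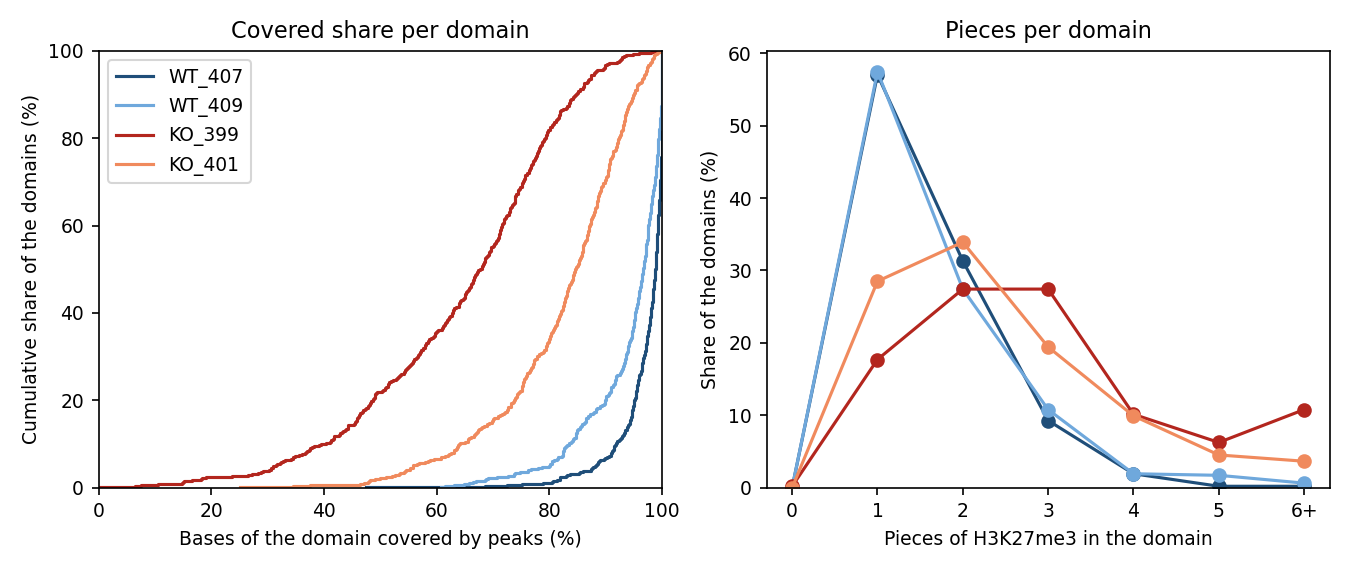
Left, cumulative share of the 463 domains (y, %) by the share of their bases under H3K27me3 peaks (x, %), 1 line per library; right, share of domains (y, %) by the number of pieces of mark in them (x). The medians are 98.8% and 96.7% in WT against 67.7% in KO_399 and 84.6% in KO_401, and a single piece is the most frequent state in WT only.

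To read the same loss without the WT library that defined a domain, domains were defined from 1 WT list and read in the other. The 377 stretches of at least 10 kb in WT_407 were covered to 95.4% in WT_409, 72.9% in KO_399 and 87.9% in KO_401. Both KO libraries lay below WT_409 in 347 of these and above it in none. The 330 stretches of WT_409 were covered to 97.5% in WT_407, 75.8% in KO_399 and 90.8% in KO_401, with both KO libraries below WT_407 in 313 and above it in 1. A WT library that had no say in the choice therefore covered more than either KO library. Only 1 WT library is left to compare with, so these values carry no test. The counts of 347 and 313 have no like count over all regions beside them. Against both WT libraries, both KO libraries were lower in 84.4% of all 7286 regions, so most regions of any length went the same way.

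The overall amount of listed mark bears on these values. Each H3K27me3 list was reduced to its strongest peaks until all covered 15.1 Mb, the length of KO_399. In domains drawn from a reduced WT list, the left-out WT library covered more. It had 86.7% against 74.3% and 80.2% in KO_399 and KO_401 for WT_407 domains, and 89.5% against 77.3% and 83.5% for WT_409 domains. In the 463 domains as first defined the values became 83.0, 79.8, 66.7 and 71.1%, a difference of -12.5 points. Whole peaks were kept or dropped, and the KO_399 list was not cut. WT cover of regions under 10 kb then fell to 34.4 and 35.3%, so the kept WT peaks lay more in long stretches. The setting therefore favours WT in long domains, and the part of the amount of mark in the difference was not tested.

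In KO the mark began farther inside both ends of a domain. Edge retraction is the distance from a domain's edge, as set in WT, to the first base under a peak. Its mean was 158 and 310 bp in WT and 1938 and 987 bp in KO_399 and KO_401, or 234 ± 107 bp against 1463 ± 672 bp (SD, n = 2 each), with the empty Brsk2 domain left out in KO_399. Both KO values lay above both WT values, with medians of 0, 47.5, 1640 and 690.5 bp. The difference of 1229 bp became 754 bp without KO_399. With left-out WT libraries, the mean was 264 bp in WT_409 against 1483 and 729 bp, and 152 bp in WT_407 against 1378 and 568 bp. At equal covered length, it was 701 bp against 1439 and 1413 bp, and 541 bp against 1330 and 1244 bp. These means leave out domains with no peak, which were 21 in WT_409 against 1 and 4 in KO, and 17 in WT_407 against 0 and 2.

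Cover rose steadily inward. In the outermost 500 bp, 80.6, 65.3, 8.76 and 27.8% of bases were covered. More than 5 kb from an edge, the values were 99.5, 99.1, 82.9 and 94.7%, so both KO libraries stayed below WT in the cores, KO_399 further than KO_401. Outside the edges, the WT libraries had 2181 and 1746 bp of mark per domain within 5 kb on each side, against 623 and 1012 bp in KO, so there too both KO libraries lay below both WT libraries.

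Position relative to genes was read in 269 domains whose genes all had a RefSeq start site. Within 1 kb of a start, 98.9, 99.7, 90.9 and 97.4% of bases were covered, and beyond 10 kb the values were 95.9, 90.1, 45.9 and 71.8%. Among bases at least 2 kb inside the edges, they were 99.2, 99.8, 92.9 and 98.5% near starts and 99.2, 98.0, 65.9 and 90.4% beyond 10 kb. The gradient in KO was thus still present among these bases, and it was steeper in KO_399. Over all domains, however, KO cover kept rising with distance from an edge beyond 2 kb. In KO_399 and KO_401 it was 65.1 and 86.3% at 2000 to 3000 bp from an edge, and 82.9 and 94.7% beyond 5000 bp. Whether the gradient from starts holds apart from distance to the edges was not tested. Of the 388 start sites inside domains, 99.0, 99.7, 91.8 and 97.7% lay under a peak.

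**Figure D2:**
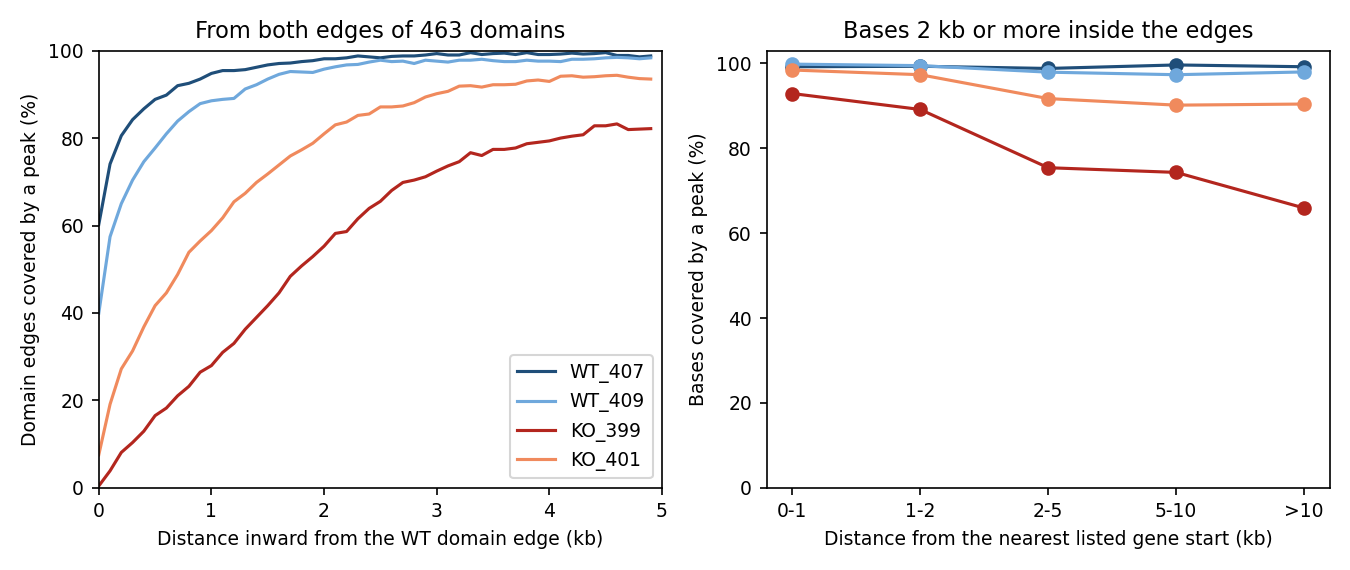
Left, share of domain edges (y, %) under a peak at each distance inward from the WT edge (x, kb), over both edges of 463 domains; right, share of bases covered (y, %) by distance to the nearest listed gene start (x, kb) among bases 2 kb or more inside the edges of 269 domains. WT lines stay near the top, and KO cover falls from 92.9% to 65.9% in KO_399 and from 98.5% to 90.4% in KO_401 on the right.

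Domains also held more pieces in KO, a piece being an unbroken stretch of peak bases. The mean number was 1.58, 1.65, 3.08 and 2.43. A single piece was found in 264, 266, 82 and 132 domains, and a piece of at least 10 kb in 371, 321, 67 and 180. Each KO library had more pieces than either WT library in 152 domains (32.8%), against 4.28% of all regions, and fewer in 6 (1.3%, against 21.2% of all regions). Shorter regions can hold fewer pieces, so these shares are not like for like. The difference of 1.14 pieces between genotypes became 0.126 when peaks up to 1000 bp apart were merged into domains, where the means were 2.88, 2.60, 3.03 and 2.70 and the genotypes overlapped. It was 0.439 with peaks of a deposited fold of at least 7. With left-out WT libraries the means were 1.56 against 3.02 and 2.14, and 1.53 against 3.16 and 2.17. At equal covered length in the same 463 domains they were 0.97, 0.937, 3.08 and 1.33. The KO_399 list was not cut there, so its value could not change. Both WT means fell under a single piece, so some domains held no WT peak after the cut.

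Most uncovered bases were at the edges. They summed to 0.203, 0.39, 2.54 and 1.25 Mb, and gaps between pieces made up 27.8, 26.6, 29.2 and 26.6% of them. The balance of edge and interior thus hardly differed between genotypes. At equal covered length in the same domains, the interior share was 1.91, 1.5, 29.2 and 7.54%. The length used is that of KO_399 itself, so its list was not reduced and its values could not change.

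Losses in the KO mice overlapped. Of 7.05 Mb covered in both WT libraries, 27.8% was uncovered in KO_399 and 10.8% in KO_401. Of the KO_401 losses, 91.8% were also lost in KO_399, and of the KO_399 losses 35.5% were lost in KO_401. The WT_407 summit of a domain was under a peak in 455 domains (98.3%) in KO_399 and 461 (99.6%) in KO_401. This point was chosen for its strength in WT, and no like count over shorter regions stands beside it. The strongest peak in a domain had a median rank, in percentiles of its own list by the authors' −log10 q, of 94.9, 92.1, 89.3 and 90.8. In shorter regions that held a peak, the median rank was 66.0, 59.4, 57.8 and 56.6. The lists differ in size.

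Longer domains kept a larger share. Between 10 and 15 kb (271 domains), cover was 60.7% in KO_399 and 79.7% in KO_401. Between 15 and 20 kb (101 domains) it was 66.2 and 83.8%, between 20 and 30 kb (69 domains) 74.3 and 88.0%, and above 30 kb (22 domains) 74.7 and 89.4%. The WT libraries stayed between 92.5 and 98.6% throughout. Mean retraction per edge did not shrink with length in this range, at 1878 to 2510 bp in KO_399 and 922 to 1297 bp in KO_401.

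Regions under 10 kb kept less, with cover of 91.7, 88.1, 39.1 and 62.8%. Domains exceeded them by 5.67, 6.83, 27.6 and 20.9 points, a difference between genotypes of 18.0 points, given as a description. This contrast turned round, to -16.1 points in the same regions and -21.9 points in regions merged from all 4 lists, when all lists covered the same length, with the shorter regions then covered to 34.4, 35.3, 39.1 and 37.7%. The limit of 10 kb marked no step. The 50 regions of 9500 bp or more just outside it were covered to 95.5, 92.6, 57.5 and 76.6%, and the 51 domains within 500 bp above it to 94.6, 91.2, 58.2 and 75.9%.

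**Figure D3:**
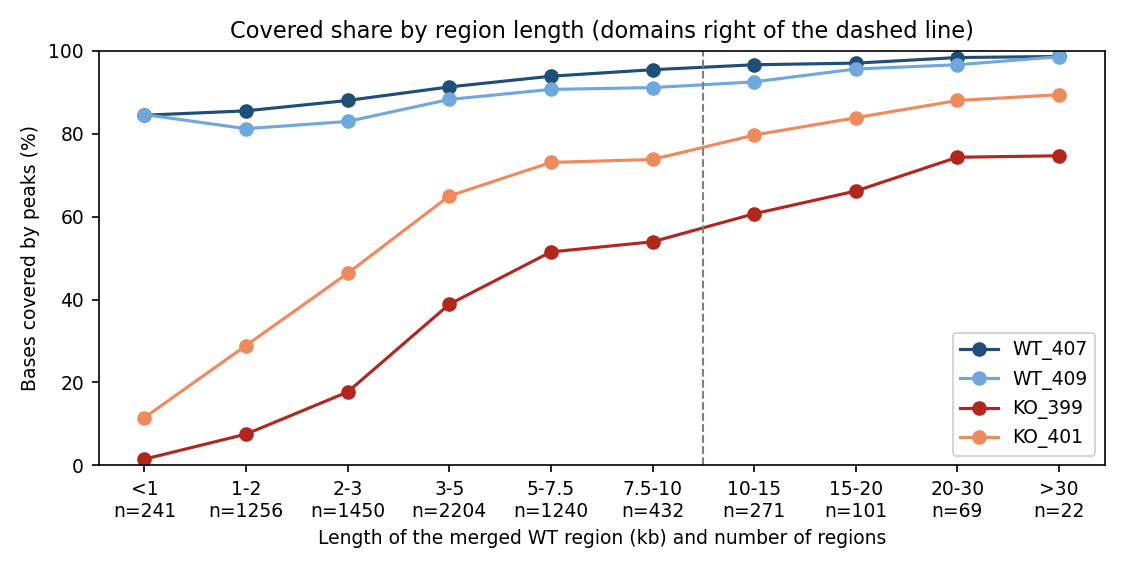
Share of bases under H3K27me3 peaks (y, %) by length of the merged WT region (x, kb, with the number of regions), 1 line per library. The line of KO_399 rises from 60.7% to 74.7% and that of KO_401 from 79.7% to 89.4% among the domains, right of the dashed line at 10 kb.

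Few long domains existed outside these. The same merging of the KO lists gave 201 domains, 200 of which overlapped a WT domain. The 1 other, at chr8:84943090-84953623 over Mast1 and Rtbdn, had 10276, 10280, 7965 and 10359 bp covered, so it was also marked in WT. Across the 201, cover was 99.6, 99.5, 87.1 and 99.6%. Each KO library lay below either WT library in 56 of the 201 (27.9%, against 84.4% of all 7286 regions chosen from WT). In domains chosen from the KO lists the shortfall was therefore seen mainly in KO_399, although that choice favours KO.

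Many developmental regulators lay in the domains. Of 20665 protein-coding genes on chromosomes 1 to 19, 504 (2.44%) overlapped a domain. All 9 Hoxc genes listed did, as did 10 of 12 listed genes of the Hoxa cluster, 9 of 10 of Hoxd and 7 of 10 of Hoxb. Other homeobox genes, which specify regions and cell types in the embryo, were represented by 80 of 110, among them Nkx2-1, Lbx1 and Mnx1. Pax genes reached 7 of 9, developmental zinc finger genes such as the Gata and Zic families 32 of 51, T-box genes 10 of 16, forkhead genes 15 of 25, Sox genes 7 of 14 and basic helix-loop-helix genes 15 of 48. Signalling ligands numbered 10 of 67 and neuronal channels, receptors and guidance genes 6 of 78. No erythroid and megakaryocyte gene (0 of 14) and no gene expressed in all cells (0 of 26) overlapped a domain.

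Domains over developmental transcription factors were kept better. The 178 domains with a gene of 11 such lists had median cover of 75.7% in KO_399 and 88.6% in KO_401, against 67.7 and 84.6% for all domains. Within 10 to 15 kb, 58 of these stood at 74.2 and 85.9%, and the 213 other domains at 58.5 and 80.9%. Above 20 kb, the gap was smaller, at 77.5 and 90.1% in 65 domains against 74.4 and 86.0% in 26. The lists describe the libraries and carry no test.

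The Hoxc domain was the longest of all, at chr15:102904716-103023205 (118490 bp) from Hoxc13 to Hoxc4. Its cover was 99.8, 99.7, 86.1 and 97.0%, and its pieces numbered 3, 3, 26 and 11. The stretch had more pieces in KO_399 than any other of the 463. The adjacent one over Hoxc4 (chr15:103023314-103047228), was covered to 95.1, 94.0, 48.3 and 80.1%. Hox proteins set position along the body axis.

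Cover also differed between neighbouring domains of other clusters. From Evx2 to Hoxd3 (chr2:74642170-74718296, 76127 bp), cover was 99.7, 99.5, 86.8 and 95.2%, whereas the adjacent domain over Hoxd3 and Hoxd4 (chr2:74719524-74755772) stood at 99.3, 98.4, 64.0 and 90.4%. This second domain holds Mir10b, whose mature sequence is given above. In Hoxa, the domain from Hoxa3 to Hoxa13 (chr6:52206988-52260457) had 99.5, 100, 85.4 and 97.2%. In Hoxb, the stretch over Hoxb9, Hoxb8 and Hoxb7 kept 92.9 and 98.6% in KO, while that over Ttll6 and Hoxb13 kept 66.7 and 83.1%. The domain of Mir196a-1 (chr11:96247646-96265469) had 99.4, 96.9, 58.7 and 85.7%, with the microRNA itself uncovered in KO_399 only.

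Domains over single developmental genes varied. Tbx1, a T-box factor of heart and pharyngeal development, had 98.9, 100, 99.0 and 99.1% in 1 piece in every library (chr16:18579215-18592341). Lbx1, a factor of muscle precursors, had 100, 99.7, 98.0 and 99.4%, and Skor1 99.2, 97.7, 95.9 and 97.3%. The genotypes overlapped at Tbx1, and at Lbx1 and Skor1 the KO libraries lay just under the lower WT library. The domain over Hoxb9, Hoxb8 and Hoxb7, Evx1, Foxl2, Nkx2-1, Mnx1 and Elfn2 were also among the best kept, with 92.0 to 95.0% in KO_399. At Tbx1 and Nkx2-1 the KO difference was above 0 without WT_409 and without KO_399, respectively.

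Zic1 and Zic4, zinc finger genes of the neural tube, lay in a domain of 48693 bp (chr9:91349848-91398540) with 99.1, 98.0, 56.4 and 82.0% covered in 2, 3, 11 and 8 pieces. Gata4, a regulator of heart and endoderm, kept 95.5, 99.0, 88.4 and 89.5% of 39663 bp. Sox2, a factor of pluripotent and neural cells, stood at 99.1, 93.4, 52.8 and 84.8%, in 3, 2, 12 and 5 pieces. It was named for its many pieces after its values were seen.

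The least kept domains were mostly over genes outside these families. Slc15a1, a peptide transporter, had 18287, 17972, 1377 and 6396 bp covered of 18502 bp (chr14:121478619-121497120). Both KO values lay far under both WT values. Brsk2, a kinase of neurons, had 10775, 6548, 0 and 6085 bp covered (chr7:141944024-141954798), where KO_401 was close to WT_409. Bahcc1 had 47.5, 100, 18.2 and 37.5%, and Celf6, an RNA-binding protein, 100, 63.2, 15.2 and 47.0%. In both of these the WT libraries differed by more than KO_401 differed from the lower one. Tcte1, Egflam, Ccno, Gm39002, Tnxb and the Rap1gap2 and Ccdc92b domain completed the 10, with 6.44 to 30.9% in KO_399 and 52.1 to 67.6% in KO_401. For Slc15a1, Celf6, Tcte1 and Egflam the sign of the KO difference turned with equal covered length. There, whole peaks were dropped from every list but KO_399, so the turn does not show a gain in KO.

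**Figure D4:**
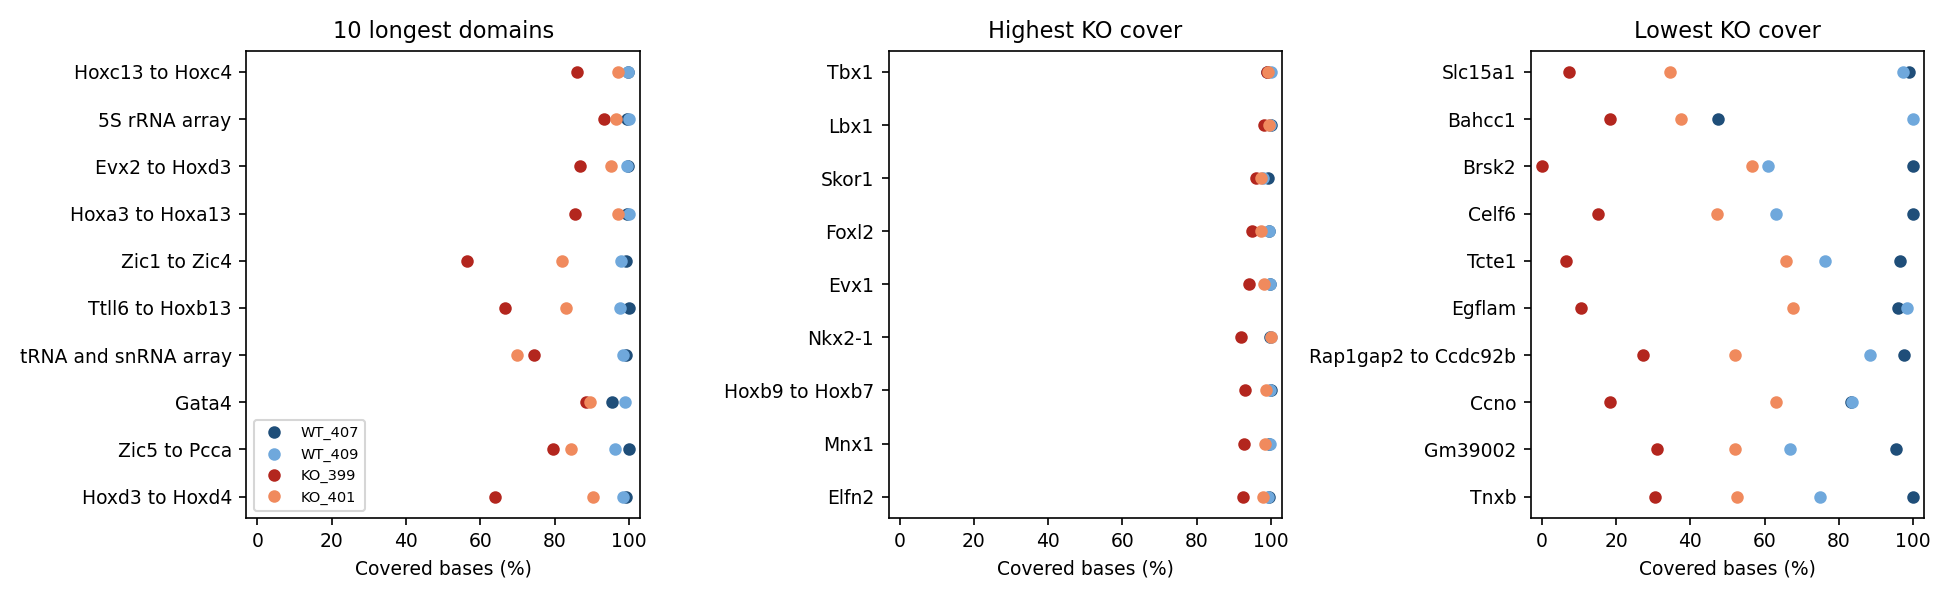
Covered bases (x, %) of the 10 longest domains and of domains with the highest and the lowest mean KO cover among those over a protein-coding gene (y), 1 dot per library. Tbx1 sits at 98.9% or more in all 4 libraries, whereas Slc15a1 falls to 7.44% in KO_399 and 34.6% in KO_401.

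Some genes of blood cells and of cell-cycle arrest lay in domains. Gata2, a factor needed by stem cells, had 95.4, 100, 89.7 and 94.5% covered (chr6:88191753-88205289). Meis1 had 92.7, 99.5, 59.4 and 87.4%, Mecom 91.8, 96.0, 67.2 and 85.9% and Prdm16 98.9, 80.0, 54.7 and 76.0%. These are regulators of stem cell maintenance, and 5 of 33 listed stem and progenitor genes overlapped a domain, as did 2 of 7 CDK inhibitors, against 2.44% of all protein-coding genes. Cdkn2a, which encodes the inhibitors p16 and Arf and is a classic Polycomb target, had 99.9, 99.2, 68.1 and 86.0% (chr4:89271793-89298750). Its neighbour Cdkn2b had 86.0, 100, 45.8 and 67.0%. The lymphoid genes Gata3 and Bcl11b stood at 80.2 and 92.1% and at 56.7 and 65.7% in KO, with WT between 95.4 and 99.6%. At equal covered length, with only the KO_399 list uncut, the sign of the KO difference turned for Meis1, Prdm16, Cdkn2b and Bcl11b. That turn does not show a gain in KO.

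Pax5, the commitment factor of B cells, had 98.9, 81.4, 68.0 and 76.0% covered. The same domain carried 711, 6935, 2452 and 660 bp of H3K4me3. WT_409, in which 9 of 11 B lymphoid starts had H3K4me3, was thus the highest library for that mark and the lower WT library for H3K27me3.

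Domains over arrays of small RNA genes lay among the longest. At least 2 tRNA, rRNA or snRNA genes lay in each of 7 domains, and most of these were tRNA or rRNA genes. Integrator processes small nuclear RNAs, whose genes lay only in arrays on chromosome 3 among the 7. A link of Integrator to these arrays was not tested. The 5S rRNA array at chr8:123536903-123630416, with 48 rRNA genes, kept 99.6, 100, 93.3 and 96.6%. A tRNA and snRNA array at chr3:96321825-96364378 stood at 99.2, 98.6, 74.4 and 70.0%, and a tRNA array at chr13:21252443-21270934 at 99.4, 91.4, 15.03 and 63.8%. All 7 had fewer covered bases in both KO libraries, as did 92.9% of all domains. Short reads from multi-copy genes cannot be placed with certainty, so these values are uncertain. The 5S array also carried 18224, 13025, 36948 and 9267 bp of H3K4me3, of which KO_399 had the most.

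H3K4me3, which played no part in choosing the domains, did not separate the genotypes. It lay in 285, 248, 311 and 247 domains and covered 1102, 901, 1373 and 851 bp per domain. WT averaged 1001 ± 142 bp and KO 1112 ± 369 bp, a difference of 110 bp within the spread (exact permutation p = 1, n = 2 each). KO_399 was highest and KO_401 lowest, so the genotypes overlapped, and the difference was -151 bp without KO_399. Without the H3K4me3 library of WT_409 it was 10.2 bp in the same domains, and -4.86 bp in domains defined from WT_407 alone.

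Most domains were alike in all 4 libraries in whether they held H3K4me3. It was present in all 4 libraries in 227 domains (49% of domains, 39.3% of all regions) and in none in 139 (30%, against 47.6%). The mark appeared in KO alone, in both mice, in 4 domains (0.864%, against 0.686% of all regions), those of Wnt10a, Six2, Elfn2 and a domain over no gene, and in WT alone, in both mice, in 1 (0.216%, against 0.247%). Each KO library had more H3K4me3 bases than either WT library in 35 domains (7.56%, against 6.18% of all regions) and fewer in 10 (2.16%, against 2.8%). Both shares were near their backgrounds. H3K4me3 lay on 18.5, 0.258, 2.85 and 3.64% of bases in interior gaps of H3K27me3, and on 6.58, 5.74, 11.1 and 5.73% of bases under H3K27me3. The gap share was the lower one in 3 libraries and the higher one in WT_407. Interior gaps summed to only 56336 bases in WT_407, against 103683, 742475 and 331983 in WT_409, KO_399 and KO_401. A few domains may therefore set the WT_407 share.

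Among domains in which both KO libraries had more H3K4me3 than either WT library, the 5 with the largest gain lay over Hox genes, Gata2, Gata3 and Meis2. The domain from Hoxa3 to Hoxa13, which includes the stem cell gene Hoxa9, had 16174, 11287, 20346 and 16815 bp of H3K4me3. KO_401 was just above WT_407 there. Gata2 had 6317, 5781, 10304 and 8868 bp, with both KO libraries well above both WT libraries. Meis2, a homeobox gene, had 410, 358, 2655 and 799 bp. Gata3 had 2809, 2422, 4333 and 2852 bp and the Evx2 to Hoxd3 domain 2542, 2111, 4036 and 2641 bp, in each of which only KO_399 was far from WT.

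Among the domains with less H3K4me3 in both KO libraries, the BC107364 domain, which holds tRNA and snRNA genes, had 3217, 3399, 2851 and 421 bp, and Lhx1 had 4088, 4426, 4072 and 3752 bp. Kcnh2 (1511, 1416, 1415 and 972 bp) and Osr1 (838, 736, 712 and 414 bp) had nearest WT and KO values that were almost equal.

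**Figure D5:**
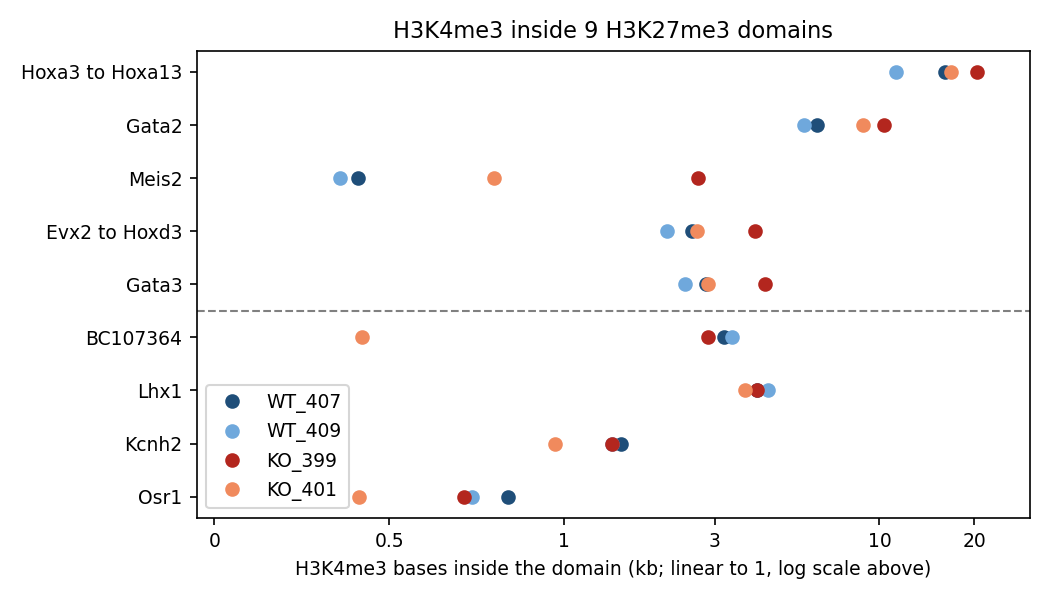
H3K4me3 bases inside 9 domains (x, kb, linear to 1 and on a log scale above), 1 dot per library; above the dashed line are the 5 largest gains in KO, below it 4 of the 5 largest losses, among domains whose genotypes did not overlap. Gata2 has 8868 bp or more in KO and 6317 bp or less in WT.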

How the data were processed

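Peak lists in narrowPeak layout were deposited for 4 H3K27me3 and 4 H3K4me3 libraries, 1 per mouse and mark, and the 4 input libraries were not analysed here. Per the labels' protocols, cells were fixed with formaldehyde (1%), the fragments measured 100 to 300 bp and the sequencer read 75 bases. The submitters' processing notes name Bowtie2, MACS2, SAMtools, deepTools, Trim Galore and FastQC, and build mm10. Versions, and whether input was the control, are not given in the sources used here. The deposited score per peak is a whole number, the deposited fold is a ratio of pileup to background, and 2 deposited columns hold −log10 of p and of q. They were used within a list only, to rank or filter peaks. Background reads were recovered from the fold and −log10 p.

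Peaks were merged where they overlapped by 1 bp or touched. Cover, pieces and edges were computed with Python 3.11.15, numpy 2.4.6 and pandas 2.3.3, after tests on simulated intervals with known answers. Two-sided exact permutation tests compared 2 libraries with 2 (6 labelings, so that p cannot fall below 1 in 3). A domain held a gene whose RefSeq span (GRCm38.p6) it overlapped by 1 bp. Start sites came from a RefSeq promoter table that is not complete. Start sites of chromosome 18 were not analysed here.

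The domains named are the 10 longest, the 10 with the highest and the 10 with the lowest mean KO cover over a protein-coding gene, any empty in a KO library, the 5 largest H3K4me3 gains and 5 largest losses without overlap between genotypes, and those of the Hox, blood and CDK inhibitor lists. Some domains and genes that these rules select are not reported here. Members, the 21 gene lists and these rules were chosen with earlier results of these data known. Alternatives were other length limits (7000 and 15000 bp), a merging gap of 1000 bp, other defining lists, a fold of at least 7, equal numbers of peaks, equal covered length, at least 500 bp of H3K4me3, and leaving out each mouse.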

Additional observations from a re-analysis of the deposited data

How the results depend on the processing

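Covered share, pieces and edge retraction kept their direction under every alternative run, with differences of -29.4 to -6.24 points, 0.126 to 1.85 pieces and 291 to 1804 bp. With peaks up to 1000 bp apart merged, however, the pieces of the genotypes overlapped. With domains from the KO lists, retraction was 17.6, 28.9, 612 and 17.5 bp and cover 99.65, 99.48, 87.09 and 99.56%. There KO_401 did not stand apart from WT in either measure, and both differences came from KO_399. What moved was mostly the number of domains, since most alternatives change which regions count. With a minimum of 15000 bp there were 192 domains over 234 protein-coding genes, of which 181 had fewer covered bases in both KO libraries, 96 had H3K4me3 in all 4, 0 in WT only and 1 in KO only, and the interior share of lost bases was 36.4%. With 7000 bp the values were 1036, 1038, 940, 490, 4, 9 and 18.2%. From bases covered in both WT lists they were 273 domains, 300 genes, 263 lower, 122 with H3K4me3 in all 4, 0 in WT only, and 29.8%. From the KO lists they were 201, 223, 56, 83, 2 in WT only, 2 in KO only, and 41.9%. The counts of lower domains were 94.3, 90.7, 96.3 and 27.9% of the domains in these settings. Beside them stands the 84.4% of all 7286 regions that were lower in both KO libraries under the main setting. The count of WT-only H3K4me3 was 2 with peaks up to 1000 bp apart merged and with domains from all 4 lists, and 0 with at least 500 bp, where KO-only was 2. With a fold of at least 7, KO-only was 1 and the interior share 13.6%, or 14.2% in the same domains. The interior share was 25.3% with equal peak numbers (25.3% in the same domains), 18.8% with equal covered length, 18.4% with that in the same domains and 18.4% from all 4 lists. The cause was not tested.

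Leaving out each mouse in turn gave 1 to 14 domains with H3K4me3 in WT only and 4 to 32 in KO only. The difference in H3K4me3 bases per domain ranged from -151 bp without KO_399 to 371 bp without KO_401, with -4.86 bp without WT_409. In the same domains the difference was 10.2 bp without the H3K4me3 library of WT_409. There, WT-only counts were 11 without the H3K4me3 library of WT_409 and 14 without that of KO_399, where the difference was again -151 bp. These last settings, and those in the same domains or from all 4 lists at equal length, were chosen after seeing the data. The excess of domains over shorter regions turned to -16.1 points in the same domains and -21.9 points from all 4 lists at equal covered length.

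For 51 named domains, 13 of 357 differences changed sign, counted over all settings. Of these 13, 11 came from equal covered length alone, so under that setting 11 of the 51 domains turned. With equal covered length the KO mean exceeded the WT mean by 3.72 points at Slc15a1, 7.59 at Celf6, 3.22 at Tcte1, 5.27 at Egflam, 3.36 at Meis2, 18.95 at Osr1, 7.10 at Meis1, 20.4 at Prdm16, 6.42 at Cdkn2b, 21.9 at Bcl11b and 8.85 at Twist1. The KO_399 list was not cut there, while the other lists lost whole peaks. These values therefore do not show a gain of mark in KO. Leaving out each mouse gave -0.948 to 0.171 points at Tbx1, the upper value without WT_409, and -7.83 to 0.0589 at Nkx2-1, the upper value without KO_399. No paired analysis was possible because WT and KO mice carry different numbers. Depth is not given in the files, and with 2 mice per genotype the exact permutation test cannot pass a threshold of 0.05.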
